A study of Mus musculus with 2 samples.

Results

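The genes Penk, Gal, Nppc, Tac1, Nts, Erfe and Edn3 encode secreted peptides or peptide hormones, and each had a single stromal, muscle stem cell or endothelial type in mouse limb muscle in which it was highest. They were picked by symbol, 7 of the 32285 genes counted, because earlier values from these same libraries showed such a pattern, so the order of their levels over cell types is given as a description and was not tested. The data are 2 droplet single-cell RNA libraries (10x Chromium) of mononuclear cells from limb muscle of aged C57BL/6 mice. One mouse group received DMSO, the vehicle, and the other Maraviroc (MVC), a small-molecule drug, injected into the abdominal cavity. The methods describe several doses and lengths of treatment, and the labels do not say which of them these libraries come from, at what exact age, or how many mice each library pools. In both groups the muscle had been digested enzymatically, red cells lysed and live cells sorted, so mature muscle fibres and intact nerves were mostly not sampled. With 1 library per group no difference between MVC and DMSO has a replicate check. No test across groups was possible, and every interval below is an exact 95% interval that covers counting error only.

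Peptide hormones of this kind are made as longer precursors that enter the secretory pathway, are cut at pairs of basic residues by prohormone convertases, are often amidated at their end, and act on receptors of nearby cells or nerve endings. Penk encodes proenkephalin, the source of the opioid enkephalins. Gal encodes galanin, best known from neurons, and Nppc encodes C-type natriuretic peptide, which raises cyclic GMP through the receptor Npr2 and is known for bone growth and vascular tone. Tac1 encodes the precursor of substance P and neurokinin A, the sensory nerve tachykinins, and Nts encodes neurotensin, a gut and brain peptide that is also a known product of lymphatic endothelium. Erfe encodes erythroferrone, a hormone of the C1q/TNF-related family that lowers hepcidin and was also described in muscle under the name myonectin, and Edn3 encodes endothelin 3, a ligand of the receptor Ednrb. In textbooks most of these peptides are taught as products of neurons, endocrine cells or endothelium, and muscle stem cells (MuSC, the Pax7-positive satellite cells), fibro-adipogenic progenitors (FAP, the interstitial fibroblast-like cells) and tenocytes (tendon cells) are less familiar sources.

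The coding bases below show what each transcript specifies. Capitals mark the codons of the mature peptide, and the lower case codons on either side include, where present, the cleavage pairs and the glycine that is turned into an amide. They were read from GENCODE M21 transcripts, GRCm38 (mm10), on the coding strand, 5′ to 3′. Erythroferrone is a full-length protein and not a short peptide, so no such stretch is shown for Erfe.

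Penk, Met-enkephalin, first copy, chr4:4134325-4134354, minus strand: aagaagTACGGAGGCTTCATGaaacggtac
Gal, galanin, chr19:3411592-3413340 (joined over an intron), minus strand: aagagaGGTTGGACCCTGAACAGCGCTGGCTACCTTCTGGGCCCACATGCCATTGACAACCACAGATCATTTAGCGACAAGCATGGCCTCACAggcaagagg
Nppc, C-type natriuretic peptide, chr1:86669667-86669738, minus strand: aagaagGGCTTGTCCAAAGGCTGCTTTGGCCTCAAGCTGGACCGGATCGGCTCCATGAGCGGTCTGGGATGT
Tac1, substance P, chr6:7556726-7556773, plus strand: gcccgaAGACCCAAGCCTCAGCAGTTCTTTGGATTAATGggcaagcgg
Tac1, neurokinin A, chr6:7557740-7559139 (joined over an intron), plus strand: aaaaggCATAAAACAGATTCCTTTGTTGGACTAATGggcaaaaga
Nts, neurotensin, chr10:102482346-102482399, minus strand: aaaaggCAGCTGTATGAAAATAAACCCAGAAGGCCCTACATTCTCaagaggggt
Edn3, endothelin 3, chr2:174761743-174761820, plus strand: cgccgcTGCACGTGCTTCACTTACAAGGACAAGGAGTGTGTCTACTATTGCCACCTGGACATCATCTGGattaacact

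The galanin and both tachykinin stretches end in a glycine codon followed by a basic pair, the layout of an amidated peptide, whereas the codons of C-type natriuretic peptide run to the end of the reading frame. The Penk reading frame of 268 codons holds 7 enkephalin copies, 6 of Met-enkephalin and 1 of Leu-enkephalin, all 7 preceded by a basic pair. Neurokinin A was present in 2 of the 4 complete Tac1 coding transcripts and substance P in 3, and the UMI counts do not separate these forms. Erfe lies at chr1:91366430-91374217 on the plus strand.

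The deposited matrices held 5812 DMSO and 6047 MVC barcodes, of which 5437 and 5454 passed the study's filter (a minimum of 500 genes and no more than 10% of UMIs from mitochondrial genes). The kept cells carried 38748234 and 35518029 UMIs, with medians of 5802 and 5195 UMIs per cell. The libraries share 9 barcode sequences, 8 of them kept, and these were treated as separate cells. Clustering gave 27 clusters in 23 types, and the types are called by their markers with the ending "-like", or left unnamed. The 7 member genes were left out of the clustering.

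The names of the 4 types on which the results turn were set against their markers. Most of these markers were higher than over all other types. Pax7 stood at 200.9 and 285.5 CPM (the UMIs of a gene per 1000000 UMIs of the type) in MuSC-like cells of the DMSO and MVC libraries against 0.504 CPM over all other types, and Myod1 at 414.4 and 334.6 CPM against 1.96 CPM. Lymphatic EC-like cells (EC, endothelial cells) had Prox1 at 995.1 and 892.6 CPM and Mmrn1 at 2017 and 2128 CPM, while Ccl21a and Lyve1 differed more between the libraries and are given with Nts. The Cxcl14/Smoc2 FAP-like cells had Pdgfra at 533.0 and 503.4 CPM against 82.8 CPM over all other types. Pi16, on the same FAP list, was lower there, at 48.15 and 84.2 CPM against 97.7 CPM. Several matrix genes among the markers of this type were higher in MVC and are given with Penk. The Thbs4-led tenocyte-like cells, whose leading gene is the tendon matrix gene Thbs4, had Tnmd in 50.6% and 73.5% of cells and Scx in 22.1% and 31.4%. Wif1, another tenocyte marker, was found in 4.02% and 1.74%. Its 9.19 and 2.62 CPM were below the 14.7 CPM over all other types. Neuronal genes (11 listed) summed to 2.91 and 14.2 CPM in MuSC-like cells, with 9 and 8 of the 11 at 0. In lymphatic EC-like cells they summed to 1.55 and 7.70 CPM, with 10 and 9 at 0. They were higher in Cxcl14/Smoc2 FAP-like cells, at 47.05 and 54.1 CPM, with 2 of the 11 at 0 in each library.

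Each peptide gene had most or much of its transcripts in a type that makes up a small part of the sample. MuSC-like cells, 2.65% of DMSO and 4.69% of MVC cells, held 94.0% of all Erfe UMIs of both libraries, 88.3% of Edn3, 87.1% of Gal and 69.3% of Nppc. By library, DMSO then MVC, these shares were 95.7% and 92.6% for Erfe, 71.1% and 92.7% for Edn3, 80.3% and 92.2% for Gal and 65.9% and 72.1% for Nppc, so the order of the genes was not the same in both libraries. Lymphatic EC-like cells, 1.38% and 1.47% of cells, held 58.6% of Nts UMIs, 46.4% in DMSO and 69.6% in MVC. Thbs4-led tenocyte-like cells, 4.58% and 5.26% of cells, held 60.2% of Tac1 UMIs, and Cxcl14/Smoc2 FAP-like cells, 9.03% and 13.5% of cells, held 52.2% of Penk UMIs. Levels are compared between types and libraries within a gene only, since the genes were not scaled to each other.

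**Figure D1:**
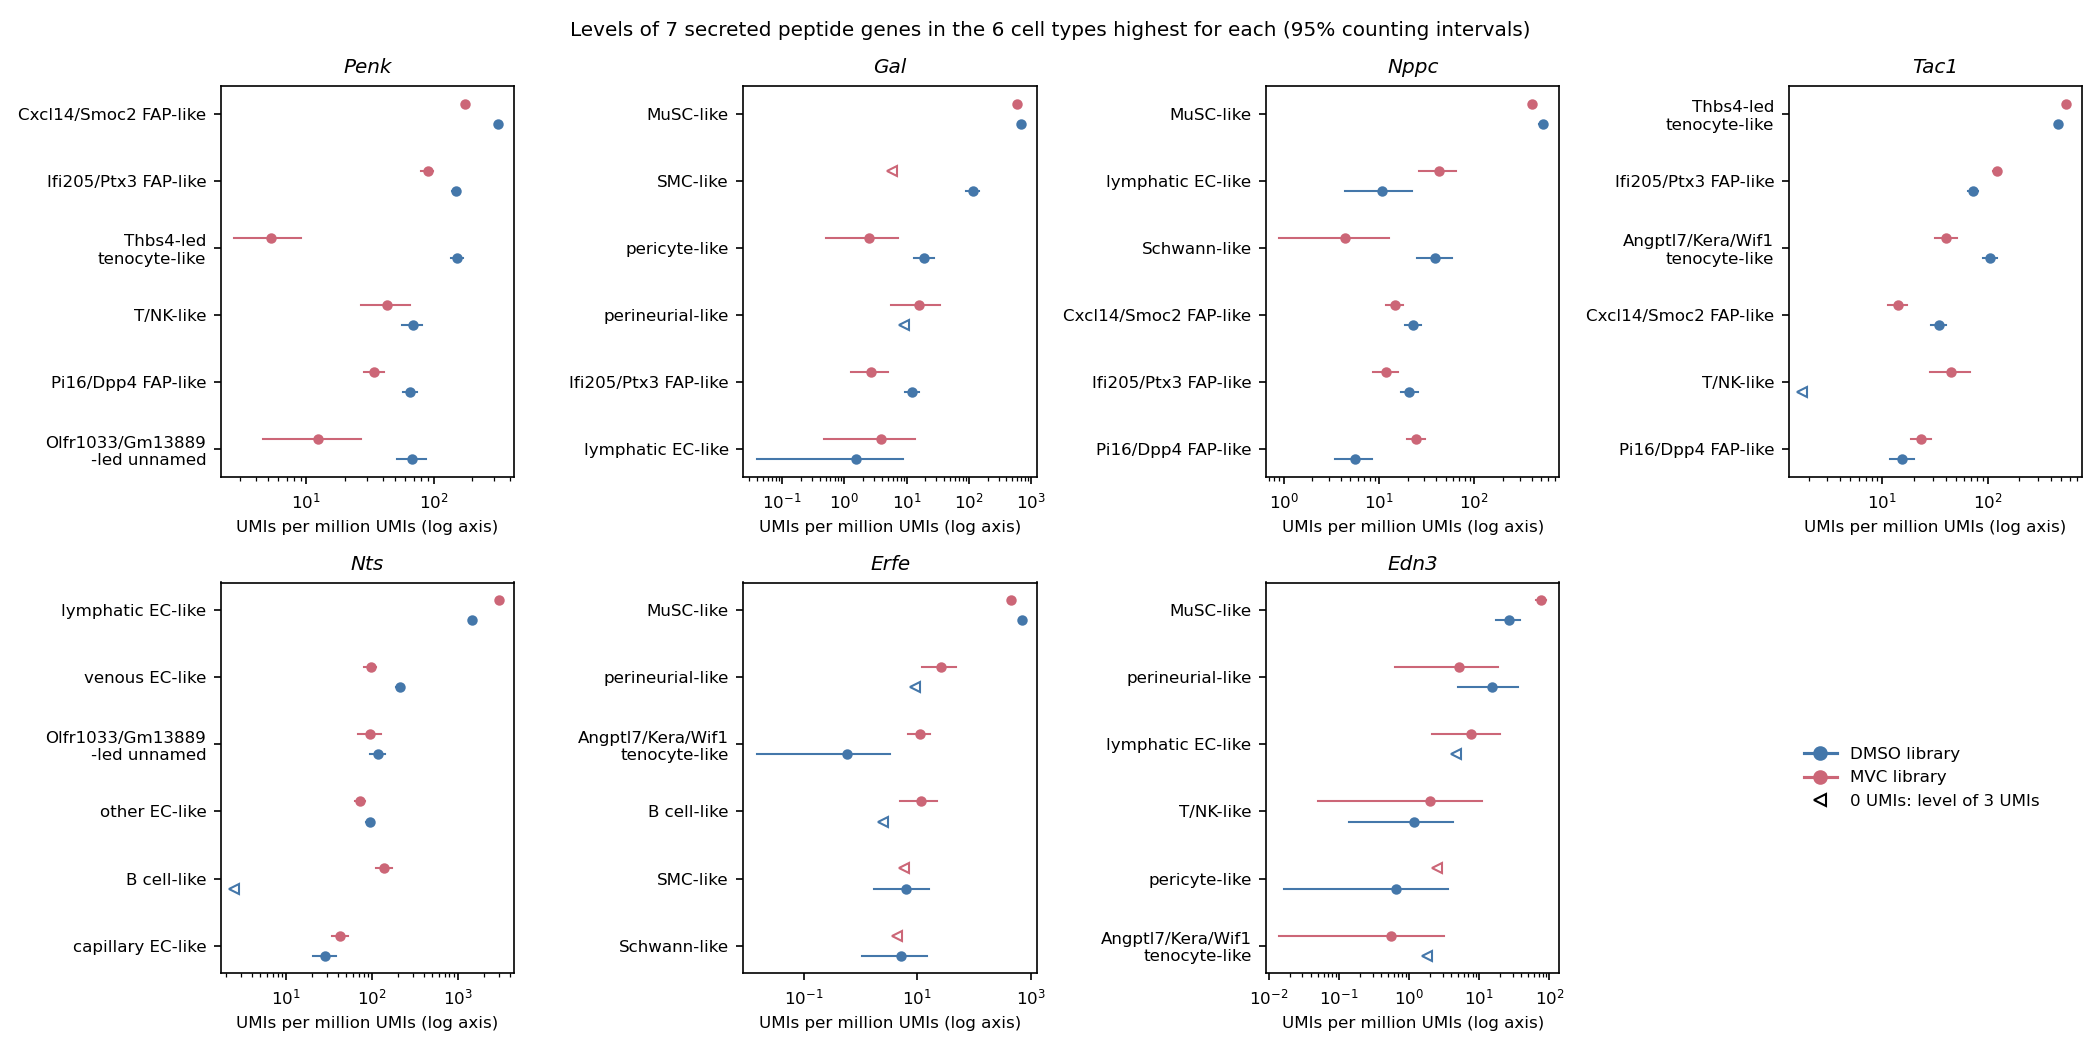
Level of each gene (CPM, on a log axis) in the cell types with the highest levels, DMSO and MVC libraries as separate points with exact 95% Poisson intervals. Open triangles mark the level that 3 UMIs would give where a type had none. Each gene has its top type set apart from the next, except Edn3 in DMSO. The step is smaller for Penk than for most, with the next type, Ifi205/Ptx3 FAP-like, at 150.3 (DMSO) and 89.7 CPM (MVC) against 320.5 and 175.8 CPM.

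The 4 MuSC genes differed in how exclusive they were and in which library they were higher. Gal, the galanin gene, stood at 700.7 CPM in MuSC-like cells of the DMSO library and at 604.9 CPM in those of the MVC library. The next type, SMC-like cells (smooth muscle), had 116.9 CPM in the DMSO library, all 73 of its UMIs in a single cell, and none in MVC, which allows a level of up to 5.89 CPM. The 26 muscle fibre-like cells of the MVC library stood at 610.0 CPM on 62 UMIs in 2 cells, a type too small to rank. The MVC over DMSO ratio in MuSC-like cells was 0.863 (0.785 to 0.949).

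Erfe, the erythroferrone gene, had the highest share of its UMIs in a single type among the members over both libraries and in DMSO, and in MVC the shares of Edn3 and Gal were as high within counting error. It had 696.8 CPM (DMSO) and 452.0 CPM (MVC) in MuSC-like cells, and the next type, perineurial-like cells (the sheath of nerve bundles), had no UMI in DMSO and 26.0 CPM in MVC, 10 UMIs in a single cell. The ratio in MuSC-like cells was 0.649 (0.586 to 0.718), and the share of cells with an Erfe UMI was 68.8% in DMSO and 59.8% in MVC. After each cell was thinned to 2000 UMIs these shares were 51.1% (42.5% to 59.7%) and 41.9% (35.6% to 48.3%), and their intervals overlap.

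Nppc was shared more widely. MuSC-like cells had 521.2 CPM (DMSO) and 401.8 CPM (MVC), a ratio of 0.771 (0.689 to 0.863). Low levels reached 3 of the FAP-like types, with 23.0 and 14.7 CPM in Cxcl14/Smoc2 cells, 20.8 and 11.9 CPM in Ifi205/Ptx3 cells and 5.58 and 24.8 CPM in Pi16/Dpp4 cells. The last of these went the other way from the MuSC-like cells, with a ratio of 4.45 (2.76 to 7.46), and 3 cells of each library held 71.3% (MVC) and 86.4% (DMSO) of its UMIs. Without the 3 highest cells of each library Nppc stood at 8.24 and 8.995 CPM in Cxcl14/Smoc2 cells, a ratio of 1.09 (0.710 to 1.70), so the direction there turned. The type next below MuSC-like cells differed between the libraries: Schwann-like cells led it in DMSO, at 39.2 against 4.39 CPM in MVC, and lymphatic EC-like cells in MVC, at 42.3 against 10.9 CPM in DMSO. Both rested on a few cells, and without the 3 highest of each library the lymphatic levels were 2.14 (MVC) and 3.24 CPM (DMSO), on 1 and 2 UMIs.

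Edn3 was the scarcest member, with 38 UMIs in all DMSO cells and 150 in all MVC cells. MuSC-like cells had 27 UMIs in DMSO and 139 in MVC, 26.2 and 75.9 CPM, a ratio of 2.90 (1.91 to 4.55). An Edn3 UMI was found in 13.2% of the DMSO and 31.3% of the MVC cells of that type. After thinning to 2000 UMIs the shares were 5.76% (2.52% to 11.0%) and 10.6% (7.02% to 15.1%), and the thinned log2 ratio was 0.91 with an interval from -0.20 to 2.17, so at that depth the difference was not detectable. The second type, perineurial-like cells, had 15.4 CPM in DMSO, where its interval overlapped that of MuSC-like cells, and 5.19 CPM in MVC, where it did not.

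The bases upstream of the 4 MuSC genes are of interest because E-boxes, with the letters CANNTG read on either strand, are the core letters bound by myogenic factors such as Myod1. In the RefSeq promoter table (GRCm38.p6) an entry was found for 6 of the 7 members, all but Penk. Among 32851 promoters of 250 bases, 66.2% hold an E-box and 13.0% hold CAGCTG, an E-box with that centre. No E-box was found in the windows of Gal, Nppc or Erfe, which says only that these letters are not in those windows. The Edn3 window holds 2, 1 of them CAGCTG, marked in capitals below, and the Erfe window is shown beside it, plus strand for both.

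Edn3, chr2:174760369-174760618: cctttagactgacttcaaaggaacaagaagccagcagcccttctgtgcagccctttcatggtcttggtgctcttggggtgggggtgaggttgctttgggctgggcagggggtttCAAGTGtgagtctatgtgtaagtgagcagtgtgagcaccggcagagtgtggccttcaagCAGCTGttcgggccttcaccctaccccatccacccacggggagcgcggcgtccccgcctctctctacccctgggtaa
Erfe, chr1:91366180-91366429: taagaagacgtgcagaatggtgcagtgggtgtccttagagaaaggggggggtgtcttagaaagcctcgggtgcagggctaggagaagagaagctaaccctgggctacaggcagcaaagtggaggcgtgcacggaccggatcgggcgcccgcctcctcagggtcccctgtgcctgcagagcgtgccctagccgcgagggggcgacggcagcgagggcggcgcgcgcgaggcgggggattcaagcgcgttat

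Penk marked FAP-like cells and was lower in the MVC library in every FAP-like type. In Cxcl14/Smoc2 cells it stood at 320.5 CPM (DMSO) and 175.8 CPM (MVC), a ratio of 0.549 (0.507 to 0.593). Several markers of that type were higher in MVC, with Smoc2 at 1159 and 2204 CPM, Col3a1 at 764.2 and 1606 CPM and Lum at 372.6 and 916.0 CPM. At Leiden resolution 2 the FAP-like cells fell into finer clusters of uneven library make-up: the cluster led by Cxcl14 and Smoc2 held 157 DMSO and 386 MVC cells, and a Gdf10/C7 cluster, then the highest for Penk, held 152 and 146 cells and gave a ratio of 0.724 (0.633 to 0.826). The part of this make-up in the Penk ratio was not tested. Ifi205/Ptx3 cells gave 0.596 (0.522 to 0.681) and Pi16/Dpp4 cells 0.521 (0.416 to 0.649). A small type with both FAP and tenocyte markers had a higher level still, 474.0 and 207.0 CPM, but with 22 and 27 cells it was below the 50 cells asked of a leading type. A Penk UMI was found in 69.9% of DMSO and 49.7% of MVC Cxcl14/Smoc2 cells, and after thinning in 34.6% (30.3% to 39.1%) and 26.1% (22.8% to 29.6%).

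Over the sum of all FAP-like cells the Penk ratio was 0.633 (0.593 to 0.674), nearer to 1 than in these 3 types, and the Cxcl14/Smoc2 type, the highest for Penk among types of at least 50 cells, took 13.5% of MVC against 9.03% of DMSO cells. The median gene of the Cxcl14/Smoc2 type was higher in MVC by 0.12 on the log2 scale, and relative to that median the Penk log2 ratio was -0.98 in place of -0.87. Penk was also found outside the stroma. T/NK-like cells had 68.3 CPM (DMSO) and 43.0 CPM (MVC), with a UMI in 5.13% and 14.8% of cells, and 61 of the 118 DMSO UMIs came from a single cell with none of the 11 FAP markers. Without the 3 highest cells of each library T/NK-like cells had 10.2 and 18.6 CPM, a ratio of 1.82 (0.717 to 4.33), so this direction rested on those cells. The 152.3 CPM of DMSO Thbs4-led tenocyte-like cells against 5.24 CPM in MVC rested on 1 cell with 288 of the 348 UMIs, and without the 3 highest cells of each library the levels were 8.50 and 0.885 CPM.

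Tac1 was a gene of tendon cells first and of inflammatory FAP-like cells second. Thbs4-led tenocyte-like cells had 460.9 CPM (DMSO) and 554.7 CPM (MVC), a ratio of 1.20 (1.11 to 1.31), with a UMI in 24.5% and 30.7% of cells. Tendon markers of this type also differed, with Angptl7 at 1610 CPM in 75.1% of DMSO cells and 333.7 CPM in 36.2% of MVC cells and Tnmd at 206.6 and 633.7 CPM, and their part in the Tac1 ratio was not tested. Ifi205/Ptx3 FAP-like cells had 73.1 and 123.0 CPM. The second tenocyte-like type, led by Angptl7, Kera and Wif1, had 106.0 and 40.5 CPM, a ratio of 0.383 (0.287 to 0.505). The order of these 2 types turned over between the libraries, with intervals that did not overlap in either. Without the 3 highest cells of each library the DMSO levels were 49.2 CPM (Ifi205/Ptx3) and 45.1 CPM (Angptl7/Kera/Wif1), no longer turned over. Schwann-like cells, the glia of nerves, had no Tac1 UMI in either library, which allows up to 5.11 CPM (DMSO) and 4.39 CPM (MVC), and neuronal genes in Thbs4-led tenocyte-like cells summed to 25.0 and 40.6 CPM, with 5 and 3 of the 11 at 0.

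Nts was highest in lymphatic EC-like cells, at 1453 CPM (DMSO) and 3009 CPM (MVC), a ratio of 2.07 (1.91 to 2.25). A neurotensin UMI was found in 50.7% and 62.5% of these cells, and in 38.7% (27.6% to 50.6%) and 52.0% (40.3% to 63.5%) after thinning. Markers of the type differed between the libraries as well, with Ccl21a at 4115 and 9134 CPM and Lyve1 at 2571 and 1718 CPM, and their part in the Nts ratio was not tested. Blood vessel endothelium held lower Nts levels, with directions that differed by type. Venous EC-like cells had 210.6 and 96.6 CPM, a ratio of 0.459 (0.379 to 0.553), and the EC-like cells with no subtype had 94.5 and 72.5 CPM, a ratio of 0.768 (0.649 to 0.906). Capillary EC-like cells had 28.1 and 42.6 CPM, a ratio of 1.51 (1.04 to 2.23), which was 1.17 (0.662 to 2.11) without the 3 highest cells of each library. Arterial EC-like cells had 4 and 32 UMIs, and 0 and 3 without those cells. The lymphatic ratio depended on how cells were weighted: it was 1.52 as the mean of each cell's own CPM and 1.57 after thinning.

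As a check on free RNA, macrophage-like cells were read, with medians of 11189 and 9512 UMIs per cell. They had a UMI of any 1 of the 7 genes in at most 1.99% of cells. Some types outside the leading ones had more, as with Penk in 8.11% (DMSO) and 13.5% (MVC) of perineurial-like cells. What part of these counts is free RNA was not tested. The leading types had medians between 5044 UMIs (lymphatic EC-like, MVC) and 9019 UMIs (Cxcl14/Smoc2 FAP-like, DMSO), and the lowest share of cells with a UMI in them was 13.2%, for Edn3 in DMSO.

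Set against all genes of the same cells, most members were short of a 2-fold difference between the libraries, though several had ratios that few genes passed. Genes with at least 20 UMIs in a type over both libraries were counted as past a 2-fold difference when the MVC over DMSO ratio was at least 2 or at most 0.5. These genes were not matched to the members in UMIs, and ratios of genes with few UMIs vary more by counting error. Of the 4 MuSC genes, Edn3 was past it upward and none downward, where 7.53% of 9063 genes were past it upward and 3.43% downward. Nts was past it upward in lymphatic EC-like cells, where 5.51% of 6609 genes were higher and 6.76% lower by as much. Tac1 was not past it in Thbs4-led tenocyte-like cells (4.93% of 10356 genes higher, 2.97% lower), nor was Penk in Cxcl14/Smoc2 FAP-like cells (5.22% of 13241 genes higher, 2.23% lower), although only 3.09% of genes there had a lower ratio than Penk. In their own types 9.81% of genes had a lower ratio than Erfe, 20.6% than Nppc and 31.8% than Gal, while 3.29% had a higher ratio than Edn3, 4.93% than Nts and 32.5% than Tac1.

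Read over all cells, as a bulk sample would be, 3 of the 4 MuSC genes gave the opposite direction. Gal, Nppc and Erfe had higher CPM over all MVC cells, with ratios of 1.46 (1.34 to 1.59), 1.37 (1.25 to 1.50) and 1.30 (1.18 to 1.44), while each was lower within MuSC-like cells by summed UMIs. For Gal the interval within MuSC-like cells reached past 1 under the stricter filter on cells (0.920, 0.834 to 1.02), under median-ratio scaling (0.924, 0.841 to 1.02) and after thinning (0.916, 0.764 to 1.10), and for Nppc after thinning (0.821, 0.657 to 1.03). The median gene of MuSC-like cells had a log2 ratio of -0.099. MuSC-like cells held 5.16% of all MVC against 2.66% of all DMSO UMIs. For Edn3 both readings were above 1, and the ratio over all cells was 4.31 (2.999 to 6.32). Penk was lower in both readings, at 0.625 (0.590 to 0.663) over all cells, and 0.690 without its 3 highest cells per library.

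**Figure D2:**
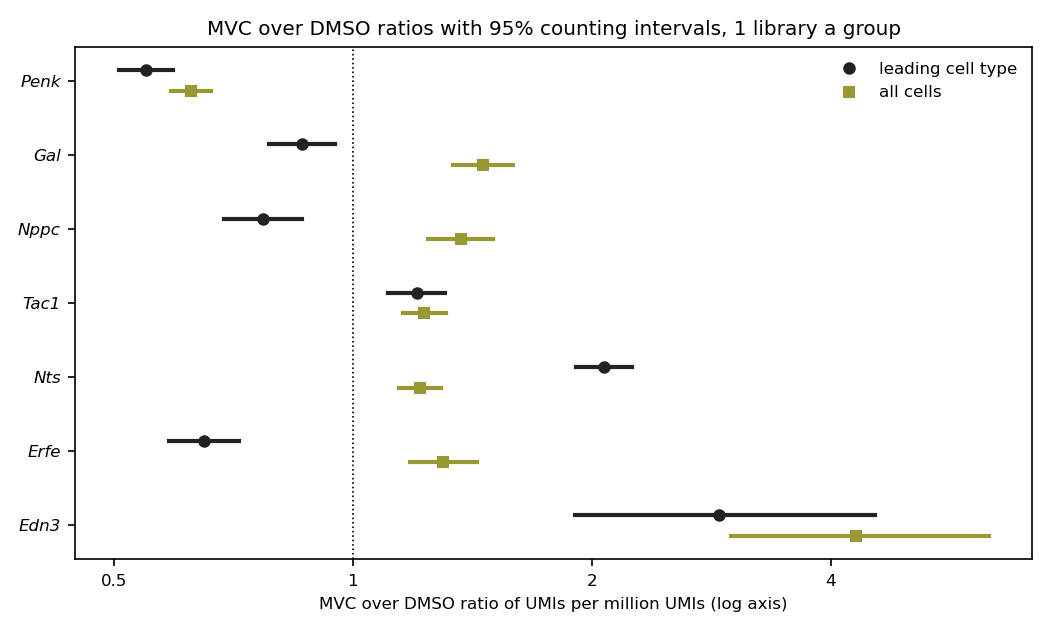
MVC over DMSO ratio of the level of each gene (log axis, exact 95% intervals, 1 library a group) in its leading cell type (circles) and over all cells (squares), with a dotted line at 1. Gal, Nppc and Erfe lie below 1 in MuSC-like cells and above 1 over all cells, and Edn3 and Nts lie above 2 in their leading types.

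Immediate early genes, which respond within minutes to stimuli and to the handling of cells, also differed between the libraries in MuSC-like cells. The median log2 MVC over DMSO ratio of the 8 measurable ones was 0.71 there, against 0.01 over all genes, with Fos at 536.7 and 1249 CPM. In Cxcl14/Smoc2 FAP-like cells the same list had a median of -0.37 against 0.15 over all genes, and in lymphatic EC-like cells -0.40 against -0.013. Muscle fibre genes (7 listed) summed to 14.6 CPM in DMSO and 44.8 CPM in MVC MuSC-like cells, with Ckm, Myh4 and Myh1 at 0 in DMSO. They summed to 18.6 and 77.0 CPM in lymphatic EC-like cells, with 4 and 1 of the 7 at 0, and to 16.2 and 29.3 CPM in Thbs4-led tenocyte-like cells. Their part in the differences of the peptide genes was not tested.

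The peptide transcripts were packed into few cells. In Thbs4-led tenocyte-like cells 9 cells of each library held 50% or more of all Tac1 UMIs of the type, and the highest cells had 154 (DMSO) and 136 UMIs (MVC). Nts reached 134 and 202 UMIs in a lymphatic EC-like cell, with 50% of its UMIs in 5 and 6 cells, and Gal reached 76 and 115 UMIs in a MuSC-like cell, with 50% in 8 and 9 cells. Penk and Erfe needed the most cells for 50% of their UMIs, 59 and 67 cells for Penk and 23 and 32 cells for Erfe.

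The same packing showed in the cells with no UMI. If Tac1 UMIs fell on cells evenly (a Poisson distribution with the measured mean), 1.46% of DMSO and 1.20% of MVC Thbs4-led cells would have none, and 75.5% and 69.3% had none. For Gal 0.665% and 1.32% of MuSC-like cells would have none, against the 56.3% and 55.5% counted. Edn3 was nearer to an even spread, with 82.9% and 58.1% under it and 86.8% and 68.8% counted. It was not even either: its variance over its mean was 1.71 (DMSO) and 2.12 (MVC), where an even spread gives 1. UMIs of 1 cell are therefore not independent draws, and the intervals of levels and ratios, most of all for Tac1, Nts and Gal, are narrower than the spread between cells.

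**Figure D3:**
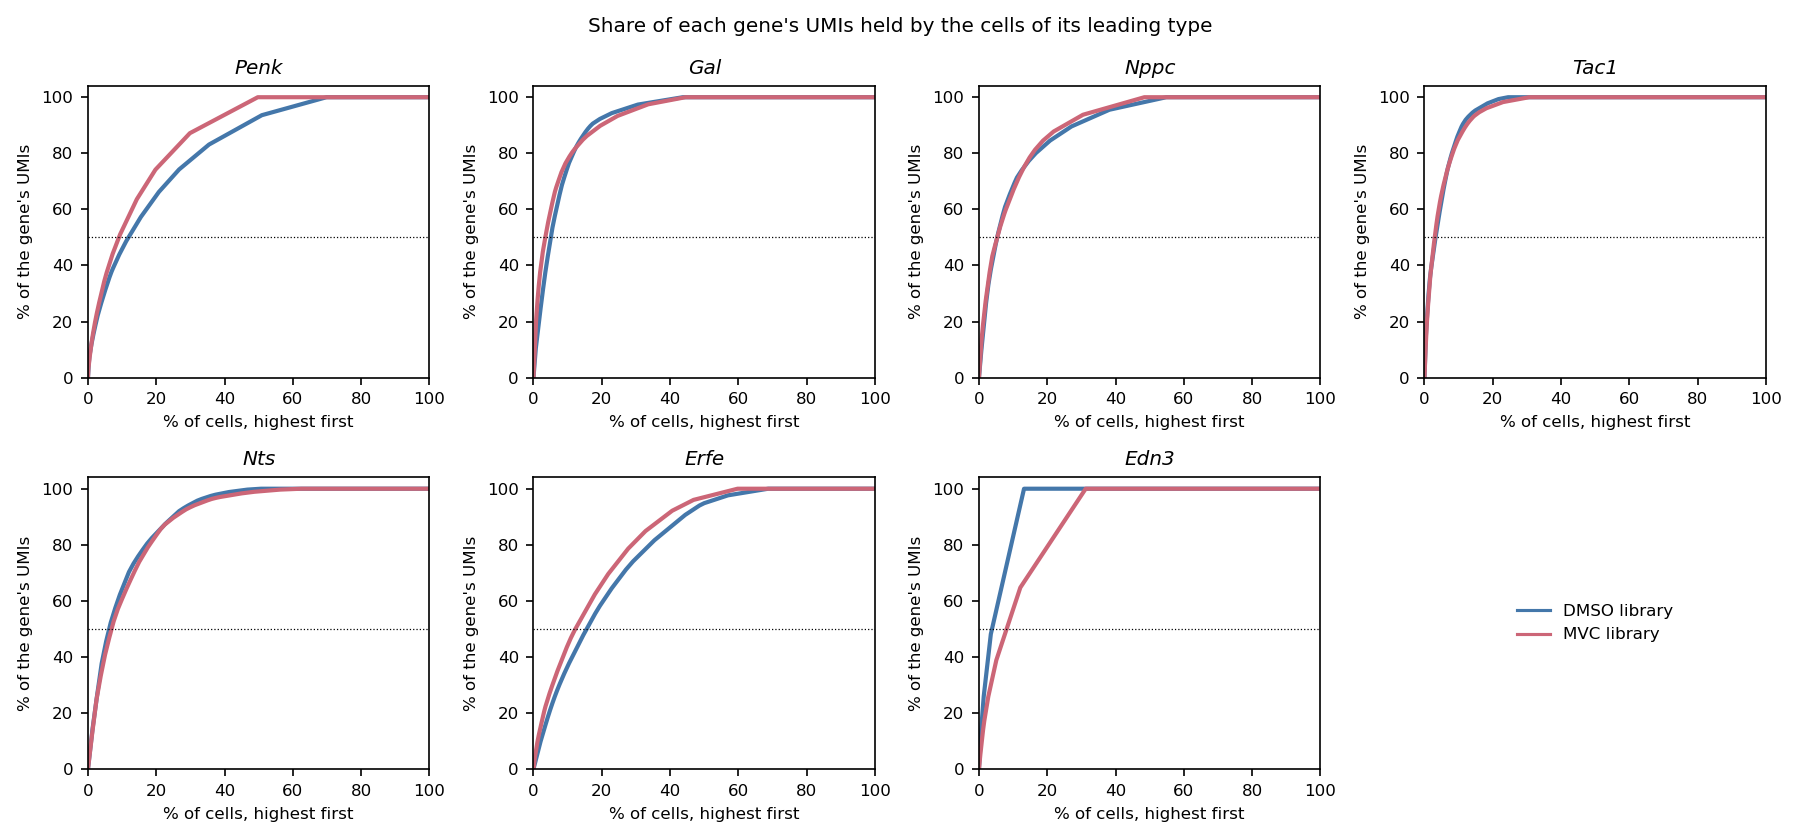
Cumulative share of each gene's UMIs in its leading type (percent) against the share of that type's cells (percent), cells ordered from highest to lowest, DMSO and MVC as separate lines and the dotted line at 50%. The Tac1, Gal and Nts curves climb steeply, with 9 of 249 DMSO cells enough for 50% of Tac1, and the Penk and Erfe curves climb more slowly.

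The highest cells did not set the direction of any ratio in a leading type. Without the 3 highest cells of each library the ratio was 0.562 for Penk, 0.819 for Gal, 0.843 for Nppc, 1.27 for Tac1, 2.30 for Nts, 0.642 for Erfe and 3.74 for Edn3. Outside the leading types they mattered more: Gal was then at 0 in SMC-like, muscle fibre-like and Ifi205/Ptx3 FAP-like cells, and Nppc in Schwann-like cells.

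Cells with at least 20 UMIs of a gene but placed outside its leading type (for Penk, outside all FAP-like types) were examined singly, and were found 66 times over the genes, never for Erfe or Edn3. The 4 Gal cells, placed among SMC-like, muscle fibre-like, pericyte-like and Ifi205/Ptx3 FAP-like cells, each had 4 to 6 of the 9 MuSC markers, where MuSC-like cells have a median of 5, and 2 of the 4 were called doublets. These cells thus carried the MuSC markers together with galanin.

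The 25 Nts cells and most of the 26 Tac1 cells were of another kind. Of the Nts cells 22 had at most 1 of the 7 lymphatic markers and 19 had none, and 18 of the 25 lay in venous EC-like or undivided EC-like cells. The other 3 were a B cell-like MVC cell with 96 Nts UMIs and all 7 lymphatic markers, which held every Nts UMI of that type, a T/NK-like MVC cell with 26 UMIs and 4 markers, and a venous EC-like DMSO cell with 165 UMIs and 2. The last pair were among 4 called doublets of the 25. Of the Tac1 cells 14 had at most 1 of the 11 tenocyte markers, and 16 of the 26 were Ifi205/Ptx3 FAP-like. Nppc had 4 such cells, 3 of them FAP-like with at most 1 MuSC marker and 1 a called doublet with 5.

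**Figure D4:**
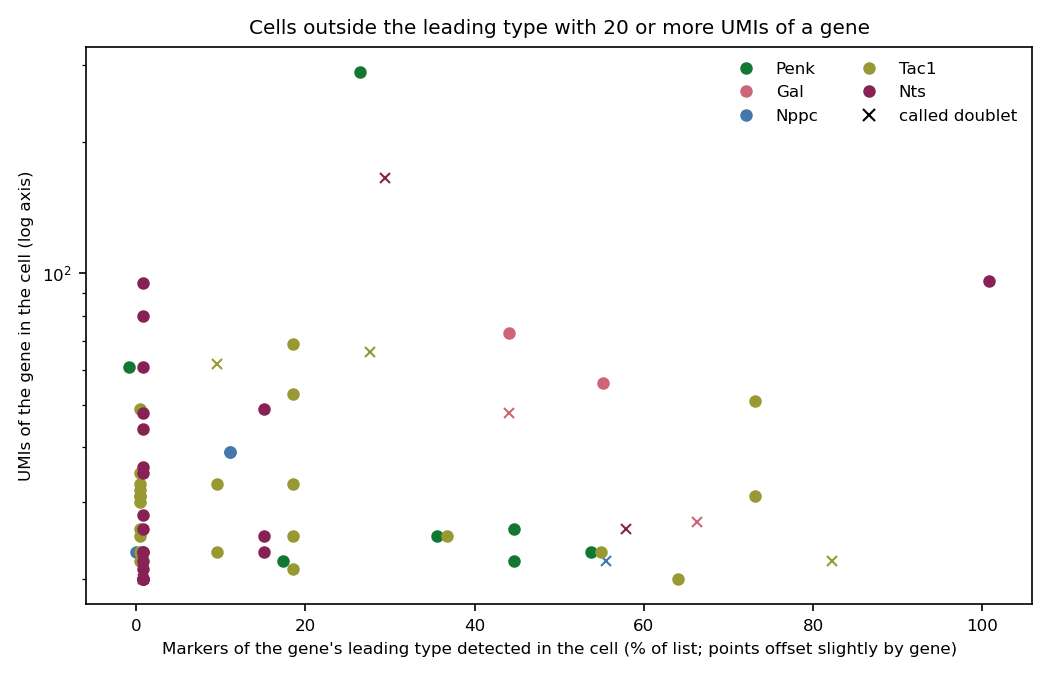
Each point is a cell outside the leading type of a gene with at least 20 UMIs of it: the share of the leading type's marker list detected in the cell (percent, points of different genes shifted slightly sideways) against the cell's UMIs of that gene (log axis), called doublets as crosses. The 4 Gal cells lie well away from 0, whereas 19 of the 25 Nts cells lie at 0.

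The MuSC genes were found in overlapping but not identical cells. Of the 144 DMSO MuSC-like cells 21 had a UMI of none of Gal, Nppc, Erfe and Edn3, 33 of 1, 49 of 2, 35 of 3 and 6 of all 4. Of the 256 MVC cells the counts were 34, 62, 86, 59 and 15. Cells with none were shallower, with medians of 5029 and 4386 UMIs, than cells with 3, with 7598 and 8140 UMIs. Gal and Nppc were found together in 45 DMSO and 68 MVC cells, where the product of their shares gives 34.6 and 55.2 cells. Thinned to 2000 UMIs the pair was found in 17 and 24 cells, where the product gives 12.4 and 21.1. Gal and Erfe thinned were found together in 21 and 46 cells against 20.4 and 30.6. The other pairs did not all lie above the product: thinned, Nppc and Erfe were found together in 27 DMSO cells against 22.0 but in 25 MVC cells against 29.7. Gal and Edn3 were found together in 2 and 6 cells against 2.30 and 7.72, and Erfe and Edn3 in 3 and 9 against 4.09 and 10.9. Nppc and Edn3 lay above the product, in 3 and 9 cells against 2.475 and 7.504.

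Cells positive for a peptide gene were set against negative cells of the same type for all other genes with at least 20 UMIs, a gene being counted when its level was at least 2-fold higher, or at least 2-fold lower, in both libraries. Positive cells were usually deeper, so it is said of each gene named whether it was found again after thinning. Thinning also left fewer genes with enough UMIs to compare, 5898 in place of 10635 for Penk. A gene not found again may therefore have been too scarce to be read. For Penk 60 genes were higher (0.564% of 10635) and 19 lower (0.179%), and the 4 found again included Comp, a tendon and cartilage matrix gene, at 52.5 against 11.4 CPM in DMSO and 147.4 against 29.5 CPM in MVC after thinning, and the cadherin Cdh11. The highest 2 unthinned, neither found again after thinning, were Sult1e1, the estrogen sulfotransferase, with ratios of 24.9 and 11.3, and the protease inhibitor Slpi, with 18.5 and 9.55.

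Among MuSC-like cells 10 genes were higher with Gal (0.174% of 5763) and 21 lower (0.364%), 29 with Nppc (0.503%) and 10 lower (0.174%), 68 with Erfe (1.18%) and 61 lower (1.06%), and 26 with Edn3 (0.451%) and 56 lower (0.972%). Sox11, a developmental transcription factor, was found again with Gal at 262.5 against 75.8 CPM (DMSO) and 109.6 against 31.8 CPM (MVC). Gas1, a growth arrest gene linked to satellite cell quiescence, and the Notch ligand Jag1 were found again with Nppc, Gas1 at 337.2 against 119.8 CPM and 380.3 against 177.1 CPM. Gas1 was also the 1 gene found again with Edn3, at 437.5 against 171.8 CPM in DMSO, which rests on 8 positive cells, and 923.1 against 154.5 CPM in MVC. The chemokine Ccl7 and the interferon-induced Gbp2 were found again with Erfe, together with Lmcd1 and Odc1, the first enzyme of polyamine synthesis.

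With Nts 29 genes were higher (0.739% of 3926) and 23 lower (0.586%), and Nav2 and Cd24a were found again, Nav2 at 534.5 against 97.8 CPM (DMSO) and 275.0 against 13.5 CPM (MVC). With Tac1 46 genes were higher (0.584% of 7883) and 56 lower (0.71%), led by the cyclin Ccnd1 with ratios of 4.11 and 4.13, and the chaperone gene Dnajb1 was found again while Ccnd1 was not. Tac1-positive cells had medians of 11215 and 10982 UMIs against 6812 and 5777 in negative cells, and the part of depth in the unthinned counts was not tested.

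The genes whose levels followed each member most closely over cell types are given by Pearson's r of log2(CPM + 1) over 45 profiles of a type in a library. The profiles of 1 library share its cells' handling and depth, and r is a description. Gal followed Myod1 (0.91), the myogenic master factor, and Erfe followed Asb5 (0.90), Rbm20 (0.88) and Myod1 (0.88), all genes of the muscle lineage. Edn3 followed Tmem61 (0.82) and Pax7 (0.76), and Nppc the FGF receptor gene Fgfr4 (0.77) and Pax3 (0.75). Among the members Gal and Erfe were most alike (0.81), and Penk and Tac1 reached 0.66. Tac1 followed 1700024B18Rik (0.89) and the matrix gene Cilp (0.87), Penk followed Hmcn2 (0.83) and Gsn (0.82), and Nts had the lowest best match, Fam174b (0.74).

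Most receptors of these peptides had low levels or few UMIs in their highest type, apart from those of endothelins and Sort1. No opioid receptor or other opioid precursor had 20 UMIs in its highest type except Oprm1, the mu receptor. It stood at 57.2 CPM (DMSO) and 100.9 CPM (MVC) in neutrophil-like cells, on 28 and 23 UMIs. Over all cells Oprm1 had 219 (DMSO) and 60 UMIs (MVC), so most lay in other types. Pomc, another opioid precursor, had 71 and 50 UMIs over all cells but 0 and 1 in its highest type. For galanin, Galr1 was highest in pericyte-like cells at 16.8 and 11.6 CPM. Of the tachykinin receptors Tacr3 was highest in an unnamed cluster led by Olfr1033 at 53.6 and 82.2 CPM, and Tacr1, the substance P receptor, had 22 UMIs in DMSO venous EC-like cells and none in MVC. Of the neurotensin receptors only Sort1, which is also a general sorting receptor, passed, at 118.5 and 121.8 CPM in SMC-like cells. The receptor of C-type natriuretic peptide, Npr2, named outside the rule for list genes, reached 24.1 and 29.4 CPM in Angptl7/Kera/Wif1 tenocyte-like cells. Over all cells it had 457 (DMSO) and 481 UMIs (MVC). Npr3, another natriuretic peptide receptor and also outside that rule, had 294 and 289 UMIs over all cells but 5 and 4 in its highest type. The effector kinase Prkg1 reached 4013 and 4207 CPM in pericyte-like cells.

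Endothelin receptors were highest in the mural cells of vessels. Ednrb, the receptor of endothelin 3, stood at 1222 CPM (DMSO) and 808.3 CPM (MVC) in pericyte-like cells, a ratio of 0.662 (0.612 to 0.715), and Ednra at 342.7 and 178.8 CPM in SMC-like cells, a ratio of 0.522 (0.404 to 0.670). The sister ligand Edn1 was highest in arterial EC-like cells, at 428.9 and 440.4 CPM, so the endothelin sources of the sample differed by type, Edn3 in MuSC-like and Edn1 in arterial EC-like cells.

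Of 19 genes of precursor processing and secretory granules 14 had at least 20 UMIs in their highest type. The amidating enzyme Pam was found in all 4 leading types and stood at 712.4 and 765.9 CPM in MuSC-like, 762.0 and 982.3 CPM in Thbs4-led tenocyte-like, 498.5 and 539.9 CPM in Cxcl14/Smoc2 FAP-like and 313.6 and 232.8 CPM in lymphatic EC-like cells. The convertase Pcsk5 was the only 1 of these past 2-fold in Thbs4-led tenocyte-like cells, at 696.8 CPM in DMSO and 265.6 CPM in MVC. The ratio was 0.381 (0.347 to 0.419). This type leads Tac1, but the values are over all its cells, of which 75.5% (DMSO) and 69.3% (MVC) had no Tac1 UMI. Of the 19 listed 11 had enough UMIs in this type and none was higher by 2-fold. Among all genes of the type 4.93% were higher and 2.97% lower by as much. In MuSC-like cells Cpe, a carboxypeptidase, was the only 1 of 7 measurable past 2-fold, upward, on 5 UMIs in DMSO and 19 in MVC, a ratio of 2.14 (0.772 to 7.32). Among all genes of that type 7.53% were higher and 3.43% lower by as much. In lymphatic EC-like cells Cpe went the other way, with 143 UMIs in DMSO and 10 in MVC, the only 1 of 7 past 2-fold. Lower too was adrenomedullin, Adm, with 99 and 13, the only 1 of the other peptide hormone genes measurable there. Among all genes of this type 5.51% were higher and 6.76% lower by as much. How these UMIs were spread over cells is not given here. In Cxcl14/Smoc2 FAP-like cells none of 11 processing genes was past 2-fold either way, where 5.22% of all genes were higher and 2.23% lower by as much, and Mme, the enzyme that degrades enkephalins, had 236.3 and 284.6 CPM.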

How the data were processed

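Single-cell RNA libraries of the DMSO and MVC groups, 1 each, were deposited by the authors as raw UMI counts per gene and barcode. The submitters' processing notes name Cell Ranger 7.0.0, Seurat 5.0.1 and the build mm10. Whether intronic reads were counted is not given in the sources used here. The labels name propidium iodide and the methods 7-AAD as the viability dye. Nothing else was normalized in the files.

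The study's filter was used, with 500 genes as the minimum and 10% mitochondrial UMIs as the maximum. Counts were brought to a sum of 10000 in each cell and put on a log scale, and 2000 variable genes (members left out) gave 30 principal components, and a 20-neighbour graph was clustered with Leiden at resolution 1, without integration. A cluster was named from at least 3 markers. Doublets were called from simulated pairs (4.34% and 4.36% of cells) and kept, with their removal as an alternative. The depth of the kept cells was 38748234 (DMSO) and 35518029 (MVC) UMIs.

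Levels are summed UMIs per 1000000 UMIs of a type (CPM). Intervals are exact at 95% (Poisson for levels, Clopper-Pearson for shares, conditional binomial for ratios), and a count of 0 allows 3 UMIs. The leading type is the highest mean level among types with at least 50 cells. No test compares MVC with DMSO. Alternatives were another cell filter or none, doublets removed, members among the clustering genes, centring by library, resolution 2, the 3 highest cells left out, mean CPM over cells, median-ratio scaling and thinning to 2000 UMIs. The ratio step was tested on simulated Poisson counts. These lack the packing of UMIs into few cells, so that test does not cover the intervals of packed genes such as Tac1, Nts and Gal. The members and gene lists were chosen with earlier results of these data known. Named are the members, their 5 closest genes, the 5 leading genes of positive cells and up to 4 genes a list by level, each over at least 20 UMIs. Genes found again after thinning, genes of a list past 2-fold in a leading type, and the minimum of 20 UMIs for cells outside a leading type, were chosen after values were seen. Sequences came from GENCODE M21 transcripts and the RefSeq promoter table. Python 3.11.15, numpy 2.4.6, scipy 1.17.1, pandas 2.3.3, scikit-learn 1.9.0, leidenalg 0.10.2 and matplotlib 3.10.9 were used.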

Additional observations from a re-analysis of the deposited data

Results flagged for a closer look

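Differences between cell types in the MVC over DMSO ratio were picked out where intervals of counting error lay wholly on opposite sides of 1, both with all cells and without the 3 highest cells of each library. With 1 library per group the differences themselves were not tested. For Nppc the ratio was 4.45 in Pi16/Dpp4 FAP-like cells but 0.569 in Ifi205/Ptx3 FAP-like and 0.771 in MuSC-like cells. For Tac1 it was 1.68 in Ifi205/Ptx3 FAP-like, 1.51 in Pi16/Dpp4 FAP-like and 1.20 in Thbs4-led tenocyte-like cells but 0.383 in Angptl7/Kera/Wif1 tenocyte-like cells. In Pi16/Dpp4 cells 3 cells held 98.4% of the DMSO and 71.95% of the MVC Tac1 UMIs. Without the 3 highest of each library the Pi16/Dpp4 ratio was 25.8 (4.19 to 1064), on 1 (DMSO) and 23 UMIs (MVC). For Nts it was 2.07 in lymphatic EC-like cells but 0.768 in undivided and 0.459 in venous EC-like cells. Without the 3 highest cells of each library the Nts ratios were 2.30, 0.713 and 0.466.

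The barcodes that the filter removed also held UMIs of the peptide genes, above the 3 that a count of 0 allows. In the DMSO library 375 removed barcodes held 11 Nts UMIs. In the MVC library 593 held 18 Penk, 4 Gal, 5 Nppc, 17 Tac1, 24 Nts and 5 Erfe UMIs. Groups of 1 library gave no sample to set against others.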

How the results depend on the processing

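In the leading types and over all cells no ratio changed sides of 1 under the alternatives run for it. Other types were recomputed only without the 3 highest cells of each library, and of the ratios the text names Penk in T/NK-like cells then went from 0.629 to 1.82 and Nppc from 0.639 to 1.09 in Cxcl14/Smoc2 FAP-like and from 3.90 to 0.661 in lymphatic EC-like cells. In the leading type the ratio ranged over 0.401 to 0.724 for Penk, 0.781 to 0.964 for Gal, 0.765 to 0.843 for Nppc, 1.15 to 1.38 for Tac1, 1.52 to 2.30 for Nts, 0.639 to 0.726 for Erfe and 1.88 to 3.74 for Edn3; where values moved, the cause was not tested. No paired analysis was possible because each group is 1 library. Single-library groups leave no replicate to omit. Depth limits Edn3 most.

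Values that moved beyond counting error follow, ratios on the log2 scale. With no filter Penk led in the FAP/tenocyte-like type (3.42% of UMIs, -1.19), as with genes centred within library (3.65%, -1.32), and at Leiden resolution 2 in a Gdf10/C7 FAP-like type (19.1%, -0.47). Without the 3 highest cells the share of UMIs in the leading type was 54.9% for Penk, 91.1% for Gal, 66.3% for Nppc, 52.3% for Tac1 and 52.0% for Nts, the Nts ratio there 1.20 and the Penk ratio over all cells -0.53. The stricter filter gave Gal 89.9% and 0.76 over all cells. Without called doublets the shares were 89.5% (Gal), 62.0% (Tac1), 62.7% (Nts) and 95.9% (Erfe), the Gal ratio -0.36 in MuSC-like cells, and over all cells -0.78 (Penk), 0.31 (Gal), 0.17 (Tac1) and 0.45 (Nts). Median-ratio scaling gave Penk -0.98. As the mean of cells' own CPM the leading-type ratios were -0.74 (Penk), -0.053 (Gal), 0.45 (Tac1) and 0.60 (Nts), and over all cells -0.56 (Penk), 0.77 (Gal), 0.52 (Tac1) and 0.18 (Nts). Thinned to 2000 UMIs they were -0.67 (Penk), 0.46 (Tac1), 0.65 (Nts), -0.46 (Erfe) and 0.91 (Edn3), and over all cells -0.37 (Penk), 0.92 (Gal), 0.65 (Nppc), 0.52 (Tac1) and 0.53 (Erfe). Thinned shares of leading-type cells with a UMI, DMSO then MVC, were 34.6% and 26.1% (Penk), 28.8% and 29.7% (Gal), 30.9% and 28.9% (Nppc), 14.6% and 18.7% (Tac1), 51.1% and 41.9% (Erfe), 5.76% and 10.6% (Edn3), and 38.7% in DMSO for Nts. Thinned, 11 genes were higher in Penk-positive (0.187% of 5898), 7 in Nppc-positive (0.285% of 2457) and 16 in Tac1-positive cells (0.456% of 3509). In Nts-positive cells 11 were higher (0.861% of 1278) and in Erfe-positive cells 16 (0.651% of 2457). Lower, in the same order of genes, were 11, 8, 30, 3 and 17.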

Other observations

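Other peptide hormone genes had sources of their own. Of the 23 listed, 9 had at least 20 UMIs in their highest type. Cck, the cholecystokinin gene, was highest in SMC-like cells at 469.2 CPM (DMSO) and 719.0 CPM (MVC), a ratio of 1.53 (1.31 to 1.79). Pthlh was highest in perineurial-like cells at 141.4 and 101.3 CPM. The Cxcl14/Smoc2 FAP-like cells, the type that leads Penk, were also highest for Adm at 124.6 and 62.4 CPM, and for Nmb, neuromedin B, at 68.9 and 107.1 CPM.

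Of 15 genes listed as related to Erfe, 9 had at least 20 UMIs in their highest type. Those types were of several kinds, among them SMC-like, pericyte-like, Schwann-like and MuSC-like cells. Bmp6, a ligand that erythroferrone is known to bind, was highest in capillary EC-like cells at 906.7 and 1189 CPM. MuSC-like cells had 664.8 and 560.1 CPM of it. C1qtnf9 was highest in an unnamed cluster led by Gpihbp1 at 491.4 and 382.2 CPM, a ratio of 0.778 (0.486 to 1.22). Bmp2 was highest in SMC-like cells at 240.2 and 161.1 CPM, a ratio of 0.671 (0.506 to 0.884). C1qtnf7 was highest in Pi16/Dpp4 FAP-like cells at 53.0 and 146.5 CPM, a ratio of 2.77 (2.35 to 3.26). C1qtnf3 was highest in MuSC-like cells, with 18 UMIs in DMSO and 102 in MVC, a ratio of 3.19 (1.92 to 5.59). It was the only 1 of 3 listed genes measurable in that type past 2-fold, where 7.53% of all genes were higher and 3.43% lower by as much. Erfe itself was lower there.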
